A study of Mus musculus with 12 samples.

Results

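Mature myelin genes were read in RNA-seq libraries of mouse spinal cord as 9 named genes, Mbp, Mobp, Mal, Mog, Mag, Cnp, Cldn11, Ugt8a and Fa2h, given as a list of names, out of 46078 genes in the count table. All 9 passed the filter on low counts. The 12 libraries form 4 groups of 3, all of C57BL6/cJ host mice: non-injured cord, spinal cord injury (SCI), SCI with syngeneic mesenchymal stem cells (MSCs), and SCI with allogeneic MSCs. MSCs are stromal cells that can be grown and transplanted. Syngeneic cells match the host genetically and allogeneic cells do not. The 3 last groups all carry the injury, and no group received cells without injury. The time after injury, the injured segment, the donor strain and the number of cells are left unsaid by the labels. Whether the 3 samples in each group came from different animals is not stated; the p-values rest on the spread among samples, which may be technical.

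Myelin is the stack of membrane that oligodendrocytes wrap around axons in the spinal cord, and it lets impulses jump along the axon. Its cytoplasmic faces are zipped together by basic proteins, its outer faces and its contact with the axon carry adhesion proteins, and its membrane is rich in galactolipids that a short chain of enzymes makes. These genes are switched on late, when an oligodendrocyte precursor matures under the transcription factors SOX10 and MYRF, and injury of the cord is known to kill oligodendrocytes and leave myelin debris.

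Sequence just before the start of a gene is shown for 4 members, chosen because they differ in matches to the motifs of these 2 factors and include the gene with the largest fold change. The sequences are from RefSeq on GRCm38.p6, 5′ to 3′ on the strand of the gene, and stop before the first exon of the GENCODE M21 gene. Capitals mark a match on either strand to ACAAAG, the core of the SOX motif (CTTTGT on the other strand), or to CTGGCAC or CTGGTAC, the MYRF motif (GTGCCAG or GTACCAG on the other strand). The Mog stretch is chr17:37023399-37023648 on the minus strand, that of Mag chr7:30914923-30915172 on the minus strand, that of Mobp chr9:120149492-120149706 on the plus strand and that of Ugt8a chr3:125938653-125938902 on the minus strand.
Mog: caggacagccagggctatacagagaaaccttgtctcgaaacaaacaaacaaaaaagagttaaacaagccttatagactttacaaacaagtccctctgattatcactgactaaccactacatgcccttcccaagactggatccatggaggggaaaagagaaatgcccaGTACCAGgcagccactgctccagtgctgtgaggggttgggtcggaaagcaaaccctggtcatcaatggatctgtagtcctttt
Mag: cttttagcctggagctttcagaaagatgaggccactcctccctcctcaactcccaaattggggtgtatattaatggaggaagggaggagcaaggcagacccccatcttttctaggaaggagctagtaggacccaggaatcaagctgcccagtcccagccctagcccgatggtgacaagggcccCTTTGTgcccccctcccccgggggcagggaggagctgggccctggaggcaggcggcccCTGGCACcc
Mobp: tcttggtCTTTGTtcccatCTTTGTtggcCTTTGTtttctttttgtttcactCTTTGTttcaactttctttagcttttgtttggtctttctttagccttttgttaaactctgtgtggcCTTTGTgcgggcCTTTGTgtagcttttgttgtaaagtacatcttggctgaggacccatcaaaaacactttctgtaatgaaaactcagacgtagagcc
Ugt8a: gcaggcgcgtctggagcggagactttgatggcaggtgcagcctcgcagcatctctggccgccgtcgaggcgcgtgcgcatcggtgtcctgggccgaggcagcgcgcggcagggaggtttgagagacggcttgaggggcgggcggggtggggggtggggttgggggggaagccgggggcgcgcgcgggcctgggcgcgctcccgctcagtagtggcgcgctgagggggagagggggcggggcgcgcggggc

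Mog held 1 MYRF match, 83 bases before the start, and Mag 1 MYRF match at 9 bases and 1 SOX match at 67 bases. Distances are counted from the RefSeq start, which for Mobp lies 35 bases inside that exon. Mobp held 6 SOX matches between 120 and 243 bases before its RefSeq start and no MYRF match. Ugt8a held neither, and 76.8% of its 250 bases were G or C, against 40.8% for Mobp. Among the others, Cnp held 1 match of each kind, and Mal and Cldn11 held none. Of 32851 RefSeq promoter entries with a window of 250 bases, 5.93% held a MYRF match and 16.5% a SOX match. The E-box CAGCTG was held by 13%, and by none of the member entries searched. The 9 entries searched belong to 7 of the 9 members, with 3 for Mag, 2 of which overlap and hold the same sites. Fa2h had no entry in the table used, and entries on chromosome 18, where Mbp lies, were not searched for members. A match describes letters in this window and says nothing of whether a factor binds there.

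The libraries held 8705942 to 26151928 counts, and the 9 genes together took 1.46% to 4.73% of them. The share was 4.73% in non-injured replicate 3, which also had the highest share of mitochondrial counts, at 10.9% against 4.998% to 8.80% in the other libraries. Levels are given as CPM, each gene's counts relative to the library total after TMM scaling. Called genes are those with an adjusted p below 0.05 in edgeR's quasi-likelihood test, with Benjamini-Hochberg adjustment over the 16527 genes tested. Fold changes are log2 values, each with the standard error (SE) of the fit. Each group mean is given ± SD with n = 3. In the GENCODE M21 annotation of GRCm38, Cnp shares 154 exon bases with Dnajc7 on the opposite strand and Mobp shares 79 with Gm38642 on the same strand. The sources used here do not give the strand setting of the counting, so reads in the shared Cnp bases cannot be assigned. In the shared Mobp bases strand cannot part the genes under any setting.

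SCI was first set against non-injured cord, to see what injury without transplanted cells did to myelin transcripts. In SCI 6 of the 9 genes were called lower and 0 higher, while 9.26% of all genes tested were called lower. The median log2 fold change of the 9 was -1.06, against 0.01 over all genes tested. The galactolipid enzymes Ugt8a (-1.40) and Fa2h (-1.29) had the largest changes, followed by Mog, Mal and Mobp, and Mag had the smallest of those called (-0.68). Mbp, Cnp and Cldn11 also lay lower in the mean but were not called. In whole tissue, fewer oligodendrocytes and less RNA in each of them cannot be told apart. The mitochondrial share of counts was also lower, at 4.998% to 6.40% in SCI against 7.46% to 10.9% in non-injured cord without overlap, and 3 of 6 mitochondrial genes tested were called lower; its part in the myelin values was not tested. The count was 6 as well in a fit without mitochondrial genes, with 9.16% of all genes called lower. Leaving those genes out alters only the filter, totals and scaling, so it does not test that part. In 7 of the 9 genes every SCI library lay below every non-injured library, as did 21.2% of all genes tested.

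**Figure D1:**
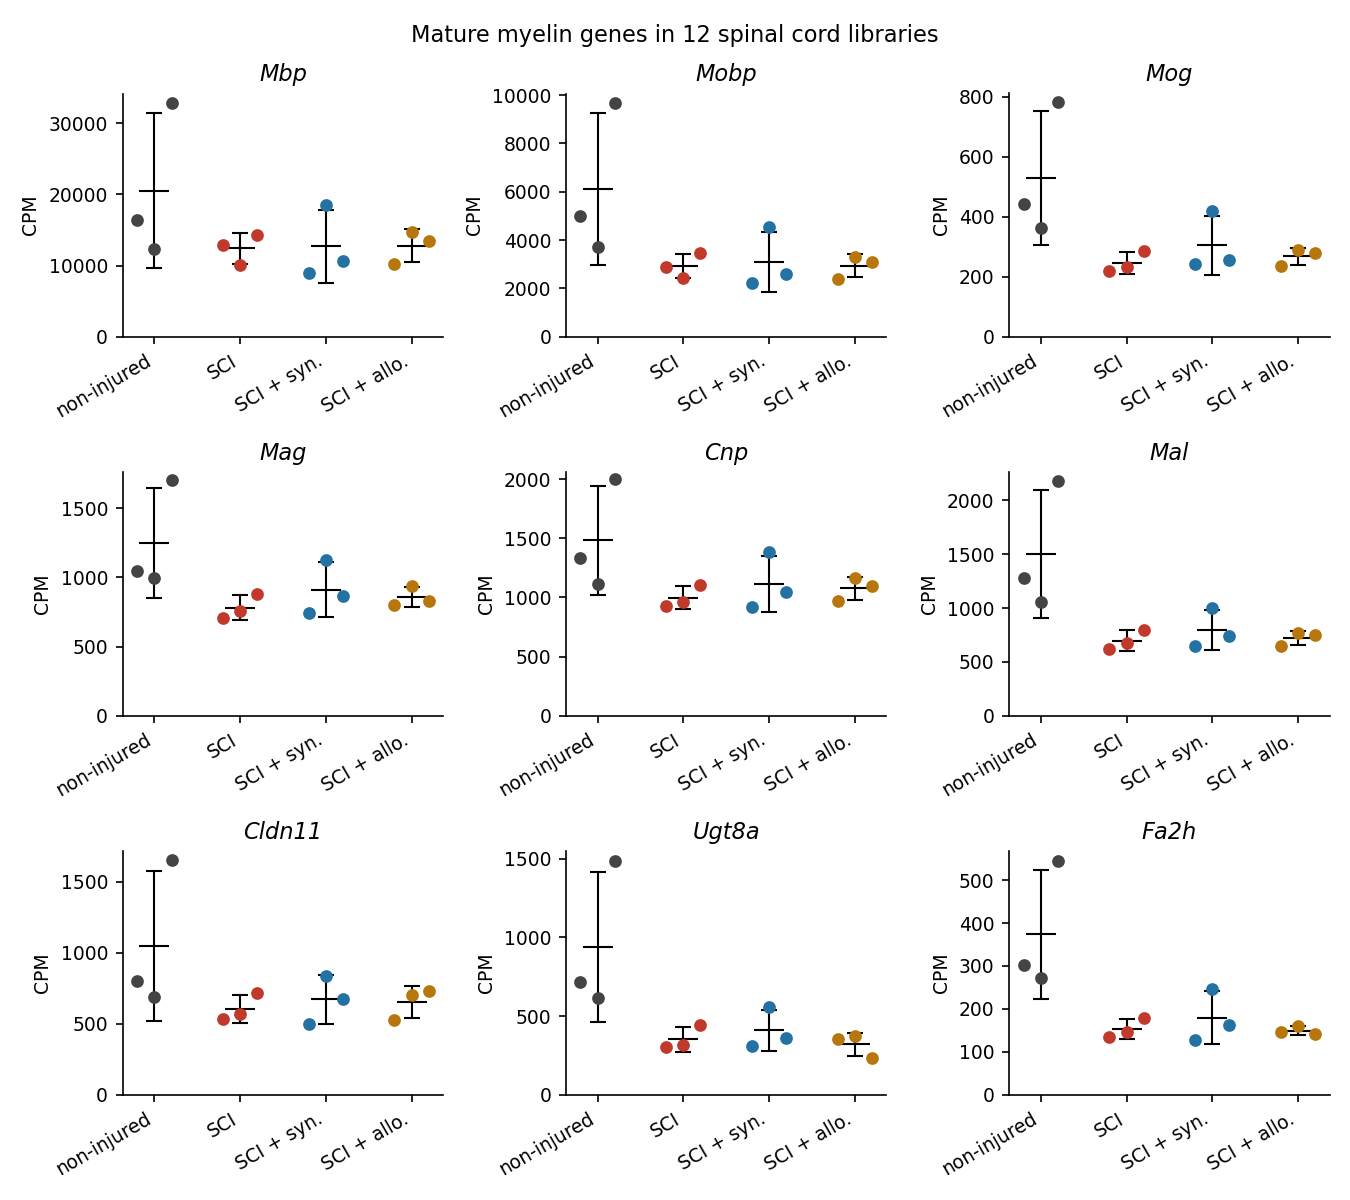
CPM of the 9 mature myelin genes in each of the 12 libraries, 1 panel per gene with its own axis from 0. Points are libraries in replicate order, and black bars are the mean and SD of each group of 3. The highest non-injured point is replicate 3 in every panel, for example 781 CPM for Mog, and the SCI points for Mog lie at 218, 231 and 286 CPM.

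The enzymes that build the galactolipids of myelin had the largest fold changes, though differences among the 9 genes were not tested. Ugt8a (ENSMUSG00000032854, chromosome 3, 125865271 to 125938619) encodes the transferase that joins galactose to ceramide to give galactosylceramide. It stood at 714, 614 and 1484 CPM in non-injured cord and at 303, 315 and 445 CPM in SCI. All 3 SCI libraries were thus below the lowest non-injured library, and non-injured replicate 3 was far above the other two. Its log2 fold change was -1.40 (SE 0.34, adjusted p = 0.012, edgeR).

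Fa2h (ENSMUSG00000033579, chromosome 8, 111345135 to 111393824) encodes the hydroxylase that makes the 2-hydroxy fatty acids found in many myelin galactolipids. Its levels were 303, 272 and 545 CPM in non-injured cord and 134, 147 and 178 CPM in SCI, again with no overlap. The log2 fold change was -1.29 (SE 0.28, adjusted p = 0.00688, edgeR), the smallest adjusted p of the 9 genes.

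Of the genes for proteins within compact myelin, Mal and Mobp were called lower and Mbp was not called. Mal (ENSMUSG00000027375, chromosome 2, 127633226 to 127656695) encodes a proteolipid of membrane domains rich in galactolipids. It had 1277, 1059 and 2178 CPM in non-injured cord and 619, 676 and 801 CPM in SCI. The groups did not overlap, and the log2 fold change was -1.11 (SE 0.25, adjusted p = 0.00863, edgeR).

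Mobp (ENSMUSG00000032517, chromosome 9, 120149707 to 120181484) encodes a small basic protein of the cytoplasmic face. It had 4989, 3715 and 9676 CPM in non-injured cord and 2884, 2445 and 3459 CPM in SCI. The highest SCI library lay close under the lowest non-injured library. The log2 fold change of -1.06 (SE 0.35, adjusted p = 0.0444, edgeR) was near the threshold and lost its call in 7 of 13 alternative fits, among them limma-voom (adjusted p = 0.0581).

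Mbp (ENSMUSG00000041607, chromosome 18, 82475146 to 82585637) encodes myelin basic protein, which holds the cytoplasmic faces together. It was the most abundant of the 9 per length of exon in all 4 groups. Non-injured libraries held 16400.0, 12327 and 32912 CPM and SCI libraries 12917, 10029 and 14349 CPM. SCI replicates 1 and 3 were above non-injured replicate 2, so the groups overlapped. Its log2 fold change was -0.72 (SE 0.36, adjusted p = 0.168, edgeR), with a 95% interval from -1.52 to 0.07, and it was not called in any of the 13 alternatives.

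The next genes encode proteins at the outer surface, at the contact with the axon and in the seams of the sheath. Of these, Mog and Mag were called lower and Cnp and Cldn11 were not called. Mog (ENSMUSG00000076439, chromosome 17, 37010743 to 37023398) encodes myelin oligodendrocyte glycoprotein, which sits on the outermost layer of the sheath. Its level was 442, 364 and 781 CPM in non-injured cord and 218, 231 and 286 CPM in SCI. With no overlap between the groups, its log2 fold change was -1.11 (SE 0.28, adjusted p = 0.0145, edgeR).

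Mag (ENSMUSG00000036634, chromosome 7, 30899176 to 30914873) encodes an adhesion protein of the innermost layer, next to the axon, and is known as an inhibitor of axon growth. It was at 1045, 994 and 1706 CPM in non-injured cord and at 706, 754 and 879.9 CPM in SCI. These libraries did not overlap either, and the log2 fold change was -0.68 (SE 0.22, adjusted p = 0.0384, edgeR).

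Cnp (ENSMUSG00000006782, chromosome 11, 100574904 to 100591729) encodes an enzyme that keeps cytoplasmic channels in myelin open, and it is also made by less mature oligodendrocytes. It had 1332, 1112 and 1999 CPM in non-injured cord and 925, 960.3 and 1106 CPM in SCI. SCI replicate 3 was only just below non-injured replicate 2, and the log2 fold change of -0.57 (SE 0.21, adjusted p = 0.0702, edgeR) was not called.

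Cldn11 (ENSMUSG00000037625, chromosome 3, 31149920 to 31164324) encodes the claudin that forms the tight junctions between turns of the sheath. It had 799, 686 and 1657 CPM in non-injured cord and 533, 569 and 718 CPM in SCI. SCI replicate 3 was above non-injured replicate 2, and the log2 fold change was -0.79 (SE 0.31, adjusted p = 0.0816, edgeR). DESeq2 called both genes (adjusted p = 0.0286 for Cnp and 0.033 for Cldn11), as did the edgeR fit without non-injured replicate 2.

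Per kilobase of exon, the order of the 9 genes in non-injured cord was Mbp (2426 ± 1287 CPM per kb), Mobp (895 ± 458), Cldn11 (560.1 ± 284), Mal (542 ± 214), Cnp (407 ± 127), Mog (310.5 ± 130.4), Mag (307 ± 97.5), Ugt8a (207 ± 105) and Fa2h (124 ± 49.7). In each pair of neighbours from Mobp down, the means differed by less than the larger SD. In SCI the order was the same but for 2 exchanges, Cnp (274 ± 26.3 CPM per kb) above Mal (251 ± 33.5) and Mag (191 ± 22.1) above Mog (144 ± 21.2). Ugt8a stood at 78.1 ± 17.4 and Fa2h at 50.9 ± 7.64 CPM per kb.

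**Figure D2:**
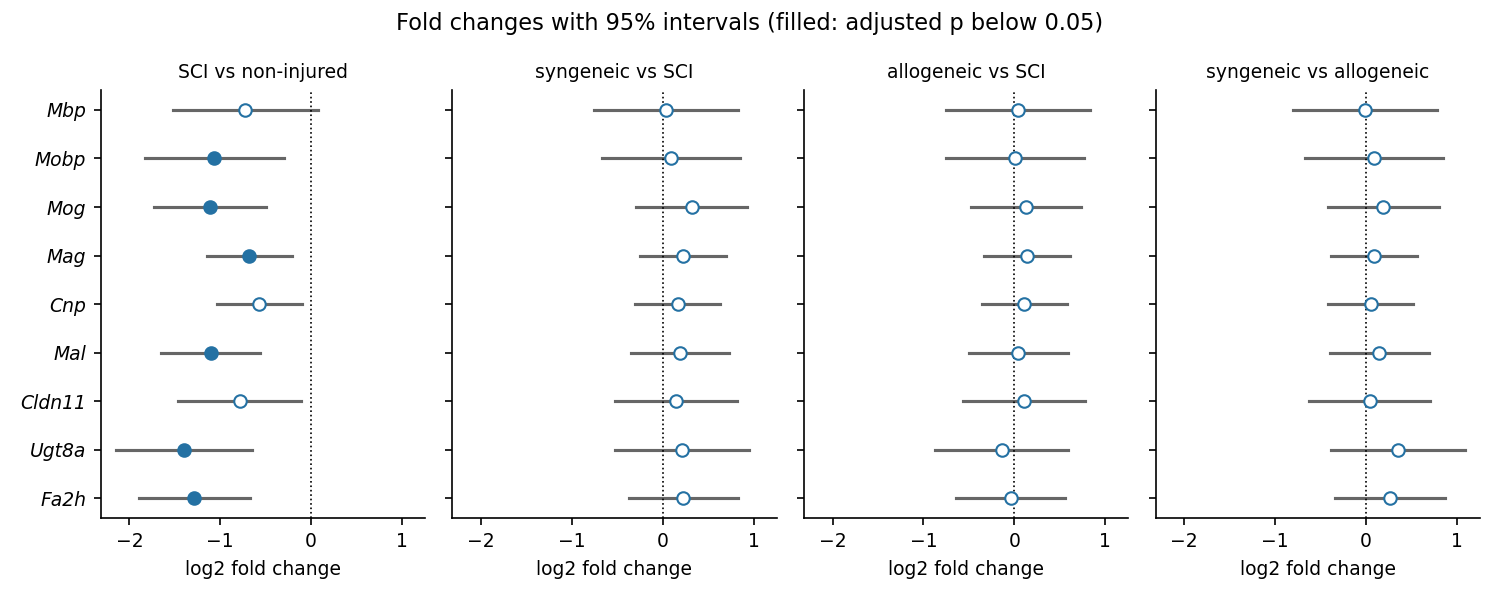
Log2 fold changes of the 9 genes in 4 comparisons, with 95% intervals from the edgeR fit as horizontal lines. Filled points have an adjusted p below 0.05, which holds for 6 genes in SCI against non-injured cord and for 0 in the 3 comparisons among injured groups, where every interval spans 0.

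Non-injured replicate 3 was the highest of its group for all 9 genes, and the size of the difference leans on it. On the mean over the 9 genes, with the mean of the log2 values in non-injured cord set to 100%, the non-injured libraries stood at 86.9%, 72.7% and 158%. The SCI libraries stood at 49.5%, 49.7% and 63.1%, below each of them. Without non-injured replicate 3, 4 of the 9 genes were called lower, against 7.84% of all genes tested in that fit. Mal (-0.76), Mog (-0.74), Ugt8a (-0.93) and Fa2h (-0.93) kept their calls, with adjusted p from 0.015 to 0.0372. Mag (-0.41, adjusted p = 0.115) and Mobp (-0.59, adjusted p = 0.166) lost theirs, and Mbp moved to -0.23, Cldn11 to -0.31 and Cnp to -0.31. Leaving out SCI replicate 1 left 3 calls, SCI replicate 2 left 2 and SCI replicate 3 left 4. Of all genes tested, 5.37%, 2.75% and 3.68% were called lower in these fits, against 9.26% with all libraries. Fa2h and Mal were called in all 13 alternatives, Ugt8a in 12, Mog in 11 and Mag in 9.

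The 9 genes moved together from library to library. Over the 12 libraries the log2 levels of the 36 pairs of genes correlated with Pearson's r of 0.82 to 0.99 (median 0.95). After each group's mean was taken off, r was 0.80 to 0.997 (median 0.96), highest for Mbp with Mobp and lowest for Ugt8a with Cldn11. The points share a library and its scaling, so r is a description.

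**Figure D3:**
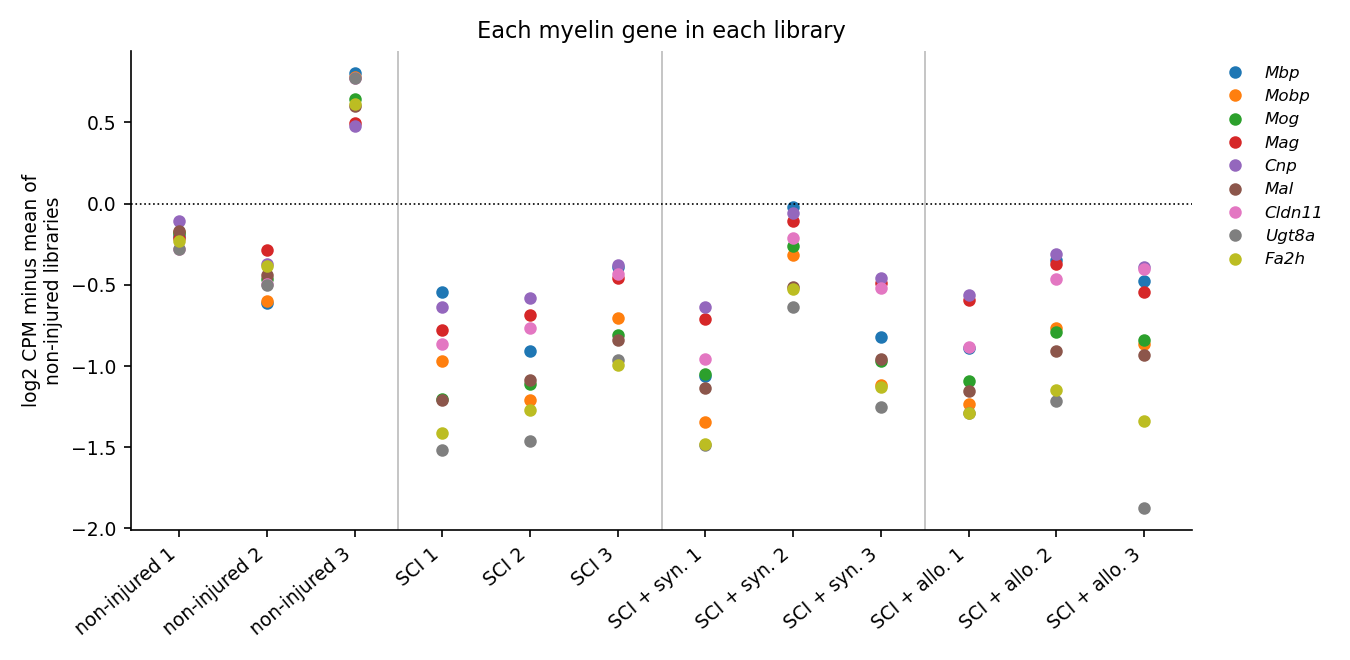
Log2 CPM of each of the 9 genes in each library, minus that gene's mean over the 3 non-injured libraries; the dotted line at 0 is that mean, colours are genes and vertical lines part the groups. Non-injured replicate 3 lies above 0 for all genes, syngeneic replicate 2 lies on average nearest to 0 among the injured libraries, and Ugt8a or Fa2h is lowest in each of the 9 injured libraries.

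The balance among the 9 genes also shifted, as a description with no test. Relative to the mean log2 level of the 9 genes in the same library, Ugt8a went from -0.80 ± 0.10 (SD, n = 3) in non-injured cord to -1.21 ± 0.11 in SCI, and Fa2h from -2.08 ± 0.07 to -2.41 ± 0.07. Mog went from -1.59 ± 0.02 to -1.73 ± 0.04 and Mal from -0.07 ± 0.05 to -0.22 ± 0.06, smaller shifts whose libraries did not overlap either, while those of Mobp overlapped (1.91 ± 0.13 to 1.84 ± 0.12). The other 4 genes went up relative to the mean. Deviations from the mean of the same genes cancel out, so a fall in some requires a rise in others. Cnp went from -0.07 ± 0.16 to 0.30 ± 0.07 and Mbp from 3.64 ± 0.15 to 3.93 ± 0.19. The libraries of Mbp overlapped, with non-injured replicate 3 at 3.79 and SCI replicate 2 at 3.74. Mag went from -0.31 ± 0.17 to -0.06 ± 0.06 and Cldn11 from -0.64 ± 0.10 to -0.43 ± 0.05. The level of Ugt8a as a percentage of that of Cnp in the same library, a pair chosen after their values were seen, was 53.6%, 55.2% and 74.2% in non-injured cord. In SCI it was 32.7%, 32.8% and 40.2%. The syngeneic libraries had 33.6%, 40.4% and 34.8%, and the allogeneic libraries 36.4%, 32.2% and 21.6%. All 9 injured libraries were thus below all 3 non-injured libraries. The ratio shows unequal change only, not that Cnp held still.

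**Figure D4:**
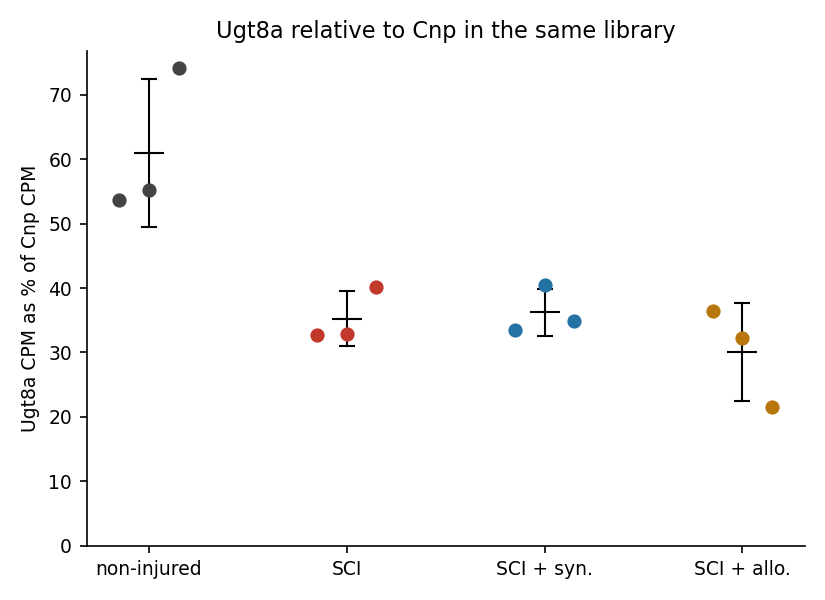
CPM of Ugt8a as a percentage of CPM of Cnp in the same library, by group; points are libraries and black bars the mean and SD of 3. The mean is 61.0 ± 11.5% in non-injured cord and 35.3 ± 4.31% in SCI, and no injured library reaches the lowest non-injured value of 53.6%.

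Beyond these, 32 further genes of the mature oligodendrocyte were tested, of which 8 were lower and 1 was higher in SCI by the same threshold (median -0.50), against 9.26% lower and 16.6% higher over all genes tested. S1pr5, a sphingosine-1-phosphate receptor of oligodendrocytes, fell by 0.87 on the log2 scale (SE 0.24, adjusted p = 0.0193, edgeR). Cd9, a tetraspanin that many other cell types also carry, was the 1 gene of the list called higher. It went from 82.8, 93.9 and 179 CPM to 287, 294 and 295 CPM (1.3, SE 0.32, adjusted p = 0.0128, edgeR).

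Of 13 other genes of galactolipid metabolism 2 were called lower and 3 higher (median -0.18), near the shares of all genes tested (9.26% lower and 16.6% higher), so the counts show nothing particular to the list. Those that rose act in the lysosome, where galactolipids are taken apart: Galc, which cleaves galactosylceramide (0.60, SE 0.13, adjusted p = 0.00788), and Psap, the precursor of its helper proteins (0.71, SE 0.17, adjusted p = 0.0103), both in edgeR. Galc was at 40.3, 41.0 and 44.8 CPM in non-injured cord and at 64.8, 68.1 and 58.1 CPM in SCI, without overlap. Arsa, which removes sulfate from sulfatide, was the other gene that rose (0.46, SE 0.12), and it was chosen after its values were seen. Those called lower were Gal3st1, which makes sulfatide from galactosylceramide (-0.99, SE 0.27), and the fatty acid elongase Elovl7 (-0.97, SE 0.28). Both were likewise named after their values were seen. Lysosomal genes are also expressed by phagocytes, and all 8 microglial and macrophage genes rose in the same libraries, from a summed level of 166 to 228 CPM to one of 1040.5 to 1245 CPM. The part of those cells in the rise of Galc and Psap was not tested.

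Of 14 transcription and chromatin factors of the oligodendrocyte lineage, 1 was called higher and 0 lower (median -0.01), beside 16.6% higher and 9.26% lower over all genes tested. Myrf stood at 217, 204 and 294 CPM in non-injured cord and at 200.3, 257 and 259.5 CPM in SCI. These ranges overlap, and its log2 fold change was 0.01 (SE 0.15, adjusted p = 0.987, edgeR), with a 95% interval from -0.33 to 0.34. Sox10 was at -0.22 (SE 0.18, adjusted p = 0.421, edgeR; 95% interval -0.62 to 0.18). Chd7, a chromatin remodeller of the lineage, was the gene called higher (0.43, SE 0.13, adjusted p = 0.0319, edgeR).

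Of 14 genes of oligodendrocyte precursors 8 were called higher and 0 lower (median 0.62, lowest -0.56), beside 16.6% called higher over all genes tested. Their summed level overlapped between the groups, at 1362 to 2120.5 CPM in non-injured cord and 1700.1 to 1953 CPM in SCI. Pdgfra, the growth factor receptor that marks precursors and is also made by fibroblasts, was at 47.4, 49.6 and 52.9 CPM in non-injured cord and at 82.3, 76.5 and 82.3 CPM in SCI. All SCI libraries were above all non-injured ones (0.69, SE 0.14, adjusted p = 0.00423, edgeR). Gpr17, a receptor of precursors that have begun to differentiate, rose by 0.61 (SE 0.18, adjusted p = 0.0261, edgeR). Itpr2, a calcium channel that other cells also carry, rose by 0.97 (SE 0.18, adjusted p = 0.00322, edgeR). Fibroblast genes rose in 5 of 5 cases in the same libraries, from a summed level of 72.4 to 173 CPM to one of 798 to 1183 CPM. Their part in the Pdgfra value was not tested.

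**Figure D5:**
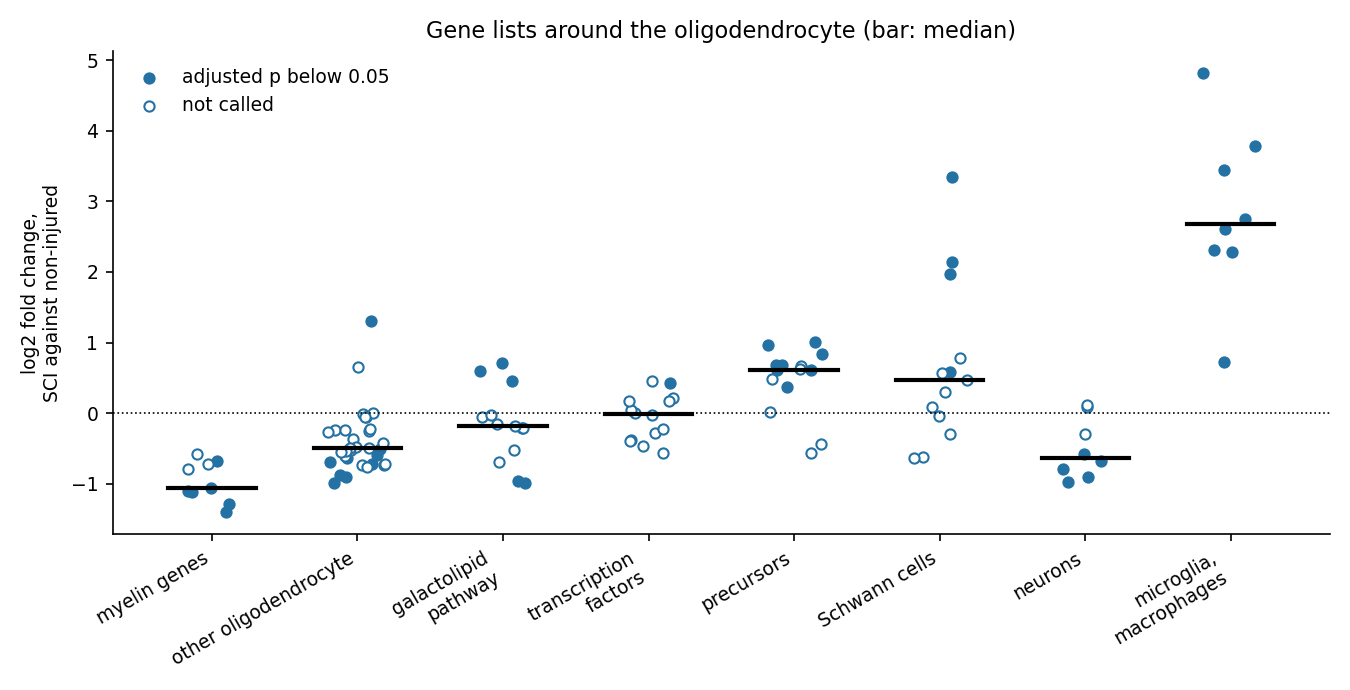
Log2 fold change of SCI against non-injured cord for the 9 myelin genes and 7 gene lists around them; each point is a gene, filled where its adjusted p is below 0.05, and black bars are list medians. The myelin genes have a median of -1.06, other mature oligodendrocyte genes -0.50, transcription factors -0.01 and precursor genes 0.62.

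Several of the 9 genes, among them Mbp and Mag, are also made by Schwann cells, the myelinating cells of nerve roots. SCI had 4 of 13 Schwann cell genes called higher and 0 lower (median 0.47), beside 16.6% higher over all genes tested, with Scn7a at 1.97 (SE 0.45, adjusted p = 0.00875) and Ngfr at 3.35 (SE 0.76, adjusted p = 0.00881), both in edgeR. Their summed level was 224, 1126 and 1823 CPM in the non-injured libraries and 841 to 982 CPM in SCI. The non-injured libraries thus spread more widely than those of SCI. Non-injured replicate 1 had the lowest Schwann cell sum of the 12 libraries. The part of Schwann cells in the myelin values was not tested. Neuronal genes were called lower in 5 of 8 cases (median -0.63). The 8 summed to 11423 to 13053 CPM in non-injured cord and to 6639 to 8093 CPM in SCI. Astrocyte genes were called higher in 5 of 7 cases and lower in 1. The part of these shifts in tissue makeup in the myelin values was not tested. None of the tested markers of oligodendrocytes, neurons or astrocytes was at 0 in any library, and skeletal muscle markers summed to 0.73 to 7.69 CPM.

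The next comparison asked what syngeneic MSCs changed after injury. In edgeR 0 of the 9 genes was called against SCI, 0 had an unadjusted p below 0.05, and DESeq2 and limma-voom called 0 as well. Over all genes tested 0.0363% were called. All 9 differences were positive, from 0.04 for Mbp (95% interval -0.76 to 0.83) to 0.32 for Mog (95% interval -0.29 to 0.93), with a median of 0.19. Mog had 242, 418 and 256 CPM with syngeneic cells, Ugt8a 309.7, 558 and 364 CPM, and Fa2h 127, 247 and 162 CPM. In each of these genes replicate 2 was high and the other replicates lay within or close to the SCI range. The upper ends of the 95% intervals were 0.93 for Mog, 0.95 for Ugt8a and 0.83 for Fa2h.

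The sign of these differences rested on syngeneic replicate 2. On the mean over the 9 genes it stood at 81.6% of non-injured cord, above non-injured replicate 2 (72.7%), while syngeneic replicates 1 and 3 stood at 46.8% and 55.2%. In it 3 of the 9 genes lay below the lowest non-injured library, against 9 in each of syngeneic replicates 1 and 3. The share of all genes that lay so in these libraries is not given here. Without it, 7 of the 9 differences from SCI were negative, from -0.34 for Mbp to 0.04 for Mag, and edgeR called 0. Replicate 2 also had the highest mitochondrial share of its group (8.80%, against 5.61% and 5.42%). Its fibroblast genes summed to 185 CPM and its microglial and macrophage genes to 459.6 CPM, below every SCI library. Syngeneic replicate 1, with the lowest myelin level of the 12 libraries, had 133 and 612 CPM. The part of these levels in the myelin values was not tested.

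Allogeneic MSCs were compared with SCI in the same way. Again 0 of the 9 genes was called in edgeR, 0 had an unadjusted p below 0.05 and DESeq2 and limma-voom called 0, with 0.188% of all genes tested called. The differences ran from -0.14 for Ugt8a (95% interval -0.88 to 0.60) to 0.14 for Mag (95% interval -0.33 to 0.61), with a median of 0.04. Mog had 235, 289 and 279.8 CPM and Fa2h 146, 161 and 141 CPM, within or next to the SCI range. Ugt8a had 354, 374 and 236 CPM, and its value in replicate 3 was the lowest of the 12 libraries.

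Syngeneic against allogeneic cells, the direct test of the donor, called 0 of the 9 genes in edgeR, DESeq2 and limma-voom, and 0 had an unadjusted p below 0.05, while edgeR called 0.611% of all genes. The differences ran from -0.01 for Mbp (95% interval -0.80 to 0.78) to 0.35 for Ugt8a (95% interval -0.38 to 1.09). Mean levels of Ugt8a were 411 ± 131 CPM with syngeneic and 321 ± 74.4 CPM with allogeneic cells. For Cnp, with the narrowest interval (-0.41 to 0.52), they were 1116 ± 238 and 1076 ± 95.2 CPM. A p above the threshold does not show that the donors act alike. With 3 libraries a group, differences up to the ends of these intervals remain compatible with the data. The same 3 comparisons called 0 genes of the other mature oligodendrocyte, galactolipid, transcription, precursor and Schwann cell lists.

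Against non-injured cord, the transplanted groups were read beside SCI; all 3 comparisons share the non-injured libraries, so their values are not independent. With allogeneic cells 5 of the 9 genes were called lower, against 8.17% of all genes tested. They were Ugt8a (-1.54), Fa2h (-1.33), Mal (-1.06), Mobp (-1.06) and Mog (-0.98), and the median of the 9 was -0.98. Of all genes called in this comparison 67.2% were higher, or 77.4% when only library totals set the scale. With syngeneic cells 1 of the 9 was called lower, Fa2h (-1.06, SE 0.28, adjusted p = 0.0494, edgeR), against 0.424% of all genes, and the median was -0.79. That call was lost in 9 of 13 alternatives. Without syngeneic replicate 2 there were 5 calls, Mog, Mobp, Mal, Ugt8a and Fa2h, against 2.27% of all genes tested. Mal (adjusted p = 0.0572) and Ugt8a (adjusted p = 0.0678) were not called in edgeR with syngeneic cells. Leaving out non-injured replicate 3 gave 3 calls with allogeneic cells (8.61% of all genes called lower) and 0 with syngeneic cells (0.418%). Leaving out allogeneic replicate 1, 2 or 3 also gave 3 calls each, with 9.57%, 3.36% and 4.76% of all genes called lower.

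The genes most like the 9 in their pattern were sought among 13748 genes with a mean log2 CPM of at least 1, by Pearson's r over the 12 libraries with the mean standardised log2 CPM of the 9 members. The members' own r, in which each is part of the mean, ran from 0.94 for Mbp to 0.99 for Mog. Among the 10 highest non-members were Tmem88b (0.990), Gatm (0.987), Agpat4 (0.983), Gjb1 (0.982), Fam57a (0.982), Tmem63a (0.981), Ptp4a1 (0.980) and Cmtm5 (0.980). Gjb1 encodes a connexin of oligodendrocyte gap junctions, and Gatm the first enzyme of creatine synthesis. In SCI the log2 fold change was -0.96 (SE 0.25) for Agpat4, an acyltransferase of phospholipid synthesis, and -0.56 (SE 0.22) for Tmem63a, with the others named here between them. The libraries share depth and scaling, and these r values carry no test.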

How the data were processed

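The authors deposited 1 table of raw read counts per Ensembl gene for 12 libraries made with a stranded poly(A) kit, per the labels' protocols. Without giving roles, the submitters' processing notes list featureCounts 1.5.1, STAR 2.5.1 and StringTie 1.3.3, the tools Trim Galore 0.4.1, FastQC 0.11.5 and Picard, and the build GRCm38. The sources used here give neither annotation release nor strand setting. From the deposited counts, genes were kept by filterByExpr (minimum count 10, minimum total 15), scaled by TMM and fitted with edgeR 4.0.16 in R 4.3.3 (robust quasi-likelihood, 12 libraries, 1 mean per group). Intervals are 95% from the fit, and log2 CPM used a prior count of 2. Alternatives were DESeq2 1.42.0 size factors, library totals only, no mitochondrial genes, no filter on low counts, DESeq2, limma-voom (limma 3.58.1), only the 2 groups compared, and leaving out each library. Samples were grouped by their source label. The scripts were tested on simulated counts. The members and lists were chosen with earlier results of these data known. All members are named; of each related list the called genes with the 2 smallest p in SCI against non-injured cord, plus Myrf, Sox10, Pdgfra and Gpr17; and the 10 genes most like the members. Some genes that the rule picks are not reported here.

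Of the genes named, Cnp, Cd9, S1pr5, Galc, Arsa, Pdgfra and Gpr17 share exon bases with a gene on the opposite strand in GENCODE M21, so their values are uncertain. Gatm, Agpat4, Fam57a, Tmem63a and Ptp4a1 were not looked up for overlaps.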

Additional observations from a re-analysis of the deposited data

How the results depend on the processing

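Of 702 values of single myelin genes under an alternative, 654 stayed on the same side of the threshold, 34 lost a call, 14 gained one, and none of the called values changed sign. The count of myelin genes called lower in SCI, 6 in the fit reported, ran from 2 to 8 when 1 library was left out, and the smallest counts came without an SCI library. In those fits 2.75% to 7.84% of all genes tested were called lower, with the lowest share without SCI replicate 2. With allogeneic cells against non-injured cord, 5 calls became 3 to 5 when 1 library was left out and 4 to 6 in the other alternatives. The share of all genes called lower was 3.36% to 9.57% and 3.95% to 10.6% in those fits. With syngeneic cells against non-injured cord, 1 call became 0 with DESeq2 size factors, 0 without mitochondrial genes, 0 in limma-voom and 0 with only the 2 groups compared, but 2 with library totals only and 3 in DESeq2, and it ran from 0 to 5 when 1 library was left out. The share of all genes called lower ran from 0.0246% to 1.19% in those alternatives. With 1 library left out it ran from 0.0474% to 2.27%. The cause was not tested. The 3 comparisons among injured groups gave 0 calls in each of 13 alternatives. No paired analysis was possible because the groups share no replicate numbers in the labels. With 3 libraries a group, differences up to the ends of the printed intervals remain compatible with the data.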

Other observations

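Genes with the opposite pattern to the 9 myelin genes were looked up after their values were seen. The lowest r with the members' mean among the 13748 genes, over 12 libraries, belonged to Flrt3 (-0.98), a transmembrane adhesion and guidance protein, Rgl1 (-0.97), Fgfr1 (-0.97), a receptor of fibroblast growth factors, Src (-0.97), a tyrosine kinase, and Zscan2 (-0.97). After each group's mean was taken off, r over the 12 libraries was -0.99 for Flrt3 and -0.94 for Fgfr1. That r pools the groups, so it does not show the pattern within each group. These r values carry no test, and the libraries share depth and scaling.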
